A study of Mus musculus with 6 samples.

Results

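The cytosolic ribosomal protein genes encode the protein subunits of the ribosome that translates nuclear mRNAs. They were taken from the deposited gene table by symbol (Rpl or Rps followed by a digit, Rplp0 to Rplp2, and Rpsa), leaving out Rps6k kinases and pseudogene symbols that contain "-ps". This gave 89 of 24940 genes in the table. They are 51 named for the large subunit, 34 for the small subunit and 3 for the ribosomal stalk, plus Rps19bp1, a binding partner of Rps19 that the symbol rule takes in but that is not a ribosomal protein. Of the 89, 85 passed the filter on low counts and were tested, among 13357 tested genes. The other 4 (Rpl3l, Rpl32l, Rpl39l and Rpl10l) had between 0 and 6 counts in all 6 libraries together.

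Levels were measured by polyadenylated RNA sequencing of primary hepatic stellate cells, which lie along the liver sinusoids and store vitamin A, isolated from wild-type (genotype wt) female C57BL/6JBomTac mice. Cells of the forskolin group (libraries A, B and C) were exposed to 5 µM forskolin, an activator of adenylyl cyclase, starting 2 days after isolation. Cells of the vehicle group (libraries A, B and C) were given dimethyl sulfoxide at 1:1000 at that time. In both groups the medium was replaced after 3 h and the RNA was collected 21 h later, which is 24 h after the start. The labels do not say whether the 3 libraries of a group came from separate animals or cultures, so p-values measure only the spread between libraries, which may be technical. In bulk RNA of this kind, fewer cells of a type and less RNA per cell cannot be told apart.

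Nearly all ribosomal proteins are present in equal number in a ribosome, and their genes are expressed together in every cell. Most of these mRNAs start with a run of pyrimidines, the TOP sequence, through which the kinase mTOR and the RNA-binding protein LARP1 control their translation and stability. Several ribosomal proteins also act off the ribosome. Rpl5 and Rpl11, for example, bind Mdm2, the ubiquitin ligase of p53.

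Total counts were 10890193 to 12954310 per forskolin library and 13001358 to 15090262.5 per vehicle library, so every vehicle library was deeper than every forskolin library. The mean total with forskolin was 0.857 times that with vehicle. All 12 stellate cell markers looked at were tested, and their summed level was 5174 to 5328 CPM (the library-scaled count) with forskolin and 5420 to 5753 CPM with vehicle. Hepatocyte markers summed to at most 0.227 CPM with forskolin and 0.301 CPM with vehicle, and Cyp3a11, Serpina1a and Fgb were at 0 in all 6 libraries. Macrophage markers (10 genes, 3 tested) summed to 38.0 to 39.1 CPM with forskolin and 34.8 to 36.8 CPM with vehicle. Endothelial markers (7 genes, 4 tested) summed to 8.50 to 9.66 CPM with forskolin and 11.99 to 13.7 CPM with vehicle. Cholangiocyte markers (4 genes, 2 tested) summed to 35.0 to 44.5 CPM with forskolin and 68.5 to 77.5 CPM with vehicle. Single markers of a list went both ways (edgeR adjusted p under 0.05). With forskolin 5 stellate markers were higher and 6 lower, and 2 macrophage markers were higher and 1 lower. Of the endothelial markers 1 was higher and 3 lower, and of the cholangiocyte markers 1 was higher and 1 lower. Over all tested genes 24.8% were higher and 25.1% lower. The part of cells other than stellate cells in the results below was not tested.

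Ribosomal protein mRNAs were slightly higher with forskolin than with vehicle, with a median log2 fold change of 0.12 over the 85 tested genes, against 0.0082 over all tested genes. The median was above 0 under every scaling tried. Of the 85, 40 rose, 1 fell and 44 were not called (edgeR quasi-likelihood test, Benjamini-Hochberg adjusted p under 0.05 over all 13357 genes). That is 47.1% called higher and 1.18% called lower, where over all tested genes 49.9% were called, 24.8% higher and 25.1% lower. In 44 of the 85 all 3 forskolin libraries lay above all 3 vehicle libraries, which is 51.8% against 28.8% of all tested genes. The changes were small: those called higher had folds of 1.08 to 1.40, no ribosomal protein gene passed 1.5-fold, and 3 had a log2 fold change beyond 0.25 in size. Without regard to sign, the median log2 fold change was 0.13 for these genes and 0.22 over all tested genes. The fold changes had an SD of 0.080 among the 85 genes. The median standard error (SE) of a single gene was 0.052 for these genes, against 0.078 over all tested genes. Depth moved with this result, as described after the single genes, and in a fit with library size as a covariate 1 gene was called higher and 2 lower. Without vehicle library B, the deepest of the 6, 16 genes were called higher.

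**Figure D1:**
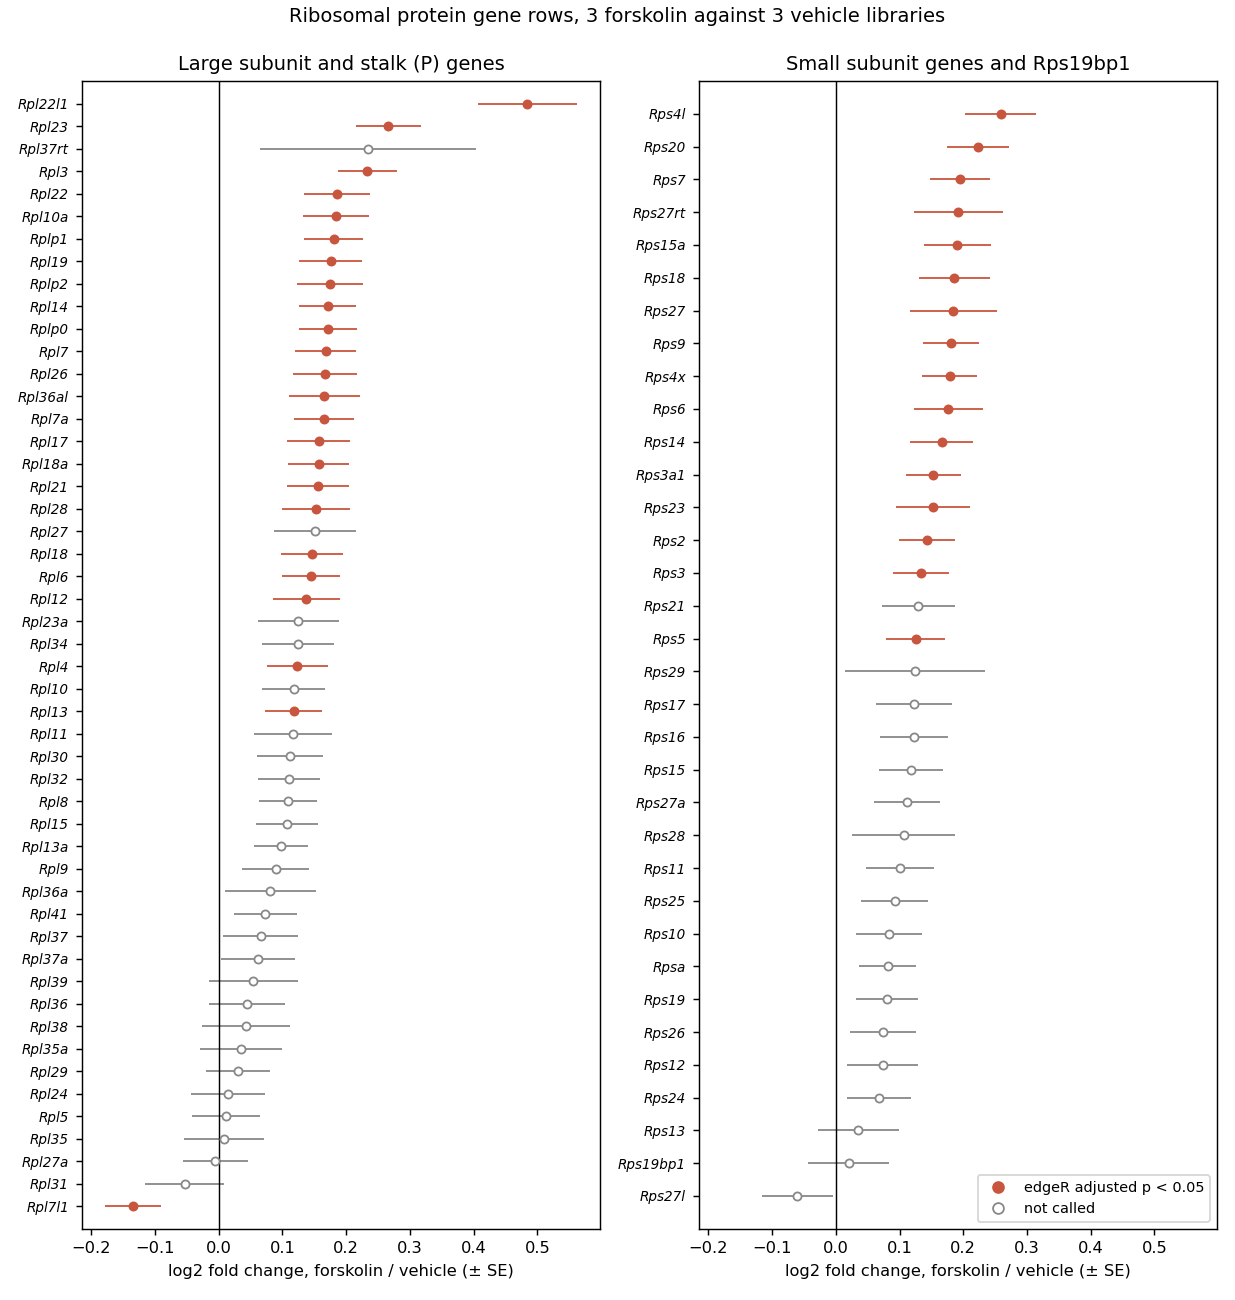
Log2 fold change, forskolin over vehicle, of the tested genes of the symbol rule, except 1 that is not reported here (horizontal axis, ± SE from edgeR, 3 libraries per group), split into large subunit with stalk genes and small subunit genes with Rps19bp1. Filled points were called at an adjusted p under 0.05: most genes lie between 0 and 0.27, Rpl22l1 stands at 0.48 and Rpl7l1 is the 1 gene called lower, at -0.13.

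In the plot of single genes the 2 subunits are set apart, and the difference between them was not tested. Of 34 small subunit genes, 17 rose and 0 fell, with a median log2 fold change of 0.13. Of 47 tested large subunit genes, 20 rose and 1 fell, with a median of 0.12. All 3 stalk genes rose, with a median of 0.17. Without the gene copies and Rps19bp1, 36 of 77 rose and 0 fell, with a median of 0.12.

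Among the small subunit genes, Rps4l, a row named as a copy of Rps4x, had the highest fold change. It stood at 72.4, 68.8 and 72.7 CPM in forskolin libraries A, B and C, against 57.0, 60.3 and 61.4 CPM in vehicle libraries A, B and C. The groups did not overlap, and the log2 fold change was 0.26 (SE 0.056, edgeR adjusted p = 0.000828). GENCODE lists Rps4l as a transcribed processed pseudogene, and the row in the table is a non-coding RefSeq transcript. Next came Rps20, a protein of the head of the small subunit, with 136, 126 and 132 CPM with forskolin and 114, 107 and 117 CPM with vehicle. Its lowest forskolin library lay above its highest vehicle library (log2 fold change 0.22, SE 0.049, edgeR adjusted p = 0.000889). Rps7, a small subunit protein that can bind Mdm2, had 114, 112 and 113 CPM with forskolin and 99.7, 94.9 and 101 CPM with vehicle. The groups did not overlap (log2 fold change 0.20, SE 0.047, edgeR adjusted p = 0.00202).

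Rps6, the substrate of the S6 kinases downstream of mTOR, averaged 92.4 ± 3.96 CPM with forskolin and 81.8 ± 4.29 CPM with vehicle (SD, n = 3 each), a log2 fold change of 0.18 (edgeR adjusted p = 0.0115). Rps3, which sits at the entry of the mRNA channel, averaged 308 ± 11.1 CPM with forskolin and 281 ± 10.7 CPM with vehicle, a log2 fold change of 0.13 (edgeR adjusted p = 0.0160). Both rose with no overlap between the groups. Rps27a, made as a fusion to ubiquitin, had a log2 fold change of 0.11 (edgeR adjusted p = 0.0792), Rpsa, also known as the laminin receptor precursor, 0.081 (0.142) and Rps19, mutated in Diamond-Blackfan anaemia in humans, 0.080 (0.178), so these 3 were not called. Rps2, another protein of the mRNA entry, was among the 5 genes with the most CPM per kilobase of exon. It stood at 331 CPM per kilobase with forskolin and 300.1 with vehicle and rose by a log2 fold change of 0.14 (edgeR adjusted p = 0.0122).

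The 3 stalk genes, whose proteins recruit the elongation factors to the ribosome, moved by nearly the same amount. Rplp0 had 455, 417 and 445 CPM with forskolin and 396, 370 and 403 CPM with vehicle. Rplp1 had 158, 151 and 160 CPM with forskolin and 141, 131 and 142 CPM with vehicle. Rplp2 had 104, 95.1 and 102 CPM with forskolin and 91.0, 85.3 and 91.0 CPM with vehicle. In each of these genes library B was the lowest of its group, in both groups, and the groups did not overlap. The log2 fold changes were 0.17 for Rplp0 (SE 0.046, edgeR adjusted p = 0.00450), 0.18 for Rplp1 (SE 0.046, 0.00338) and 0.17 for Rplp2 (SE 0.052, 0.00945).

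Among large subunit genes other than the copies, Rpl23, whose protein can bind Mdm2, and Rpl3, which lies near the peptidyl transferase centre, had the highest fold changes of those called. Rpl23 stood at 132, 122 and 129 CPM with forskolin, against 109, 99.5 and 109 CPM with vehicle. Rpl3 stood at 226, 209 and 223 CPM with forskolin, against 191, 178 and 191 CPM with vehicle. Neither gene's groups overlapped, and both rose (edgeR adjusted p = 0.000282 for Rpl23 and 0.000355 for Rpl3), Rpl23 by 0.27 (SE 0.051) and Rpl3 by 0.23 (SE 0.046) on the log2 scale. Rpl10a rose by 0.18 (edgeR adjusted p = 0.00648). The mRNAs of the 2 partners of 5S rRNA that bind Mdm2 were not called: Rpl5 averaged 91.1 ± 1.99 CPM with forskolin and 90.4 ± 5.84 CPM with vehicle (SD, n = 3 each; log2 fold change 0.012, edgeR adjusted p = 0.874), and Rpl11 averaged 63.2 ± 3.41 CPM with forskolin and 58.3 ± 2.83 CPM with vehicle (0.12, 0.120). The sign of Rpl5 turned negative without vehicle B. Rpl38, needed in mice for translation of Hox mRNAs, was not called either (0.043, edgeR adjusted p = 0.632), and its sign turned negative without forskolin A or without vehicle B. Of the 2 large subunit genes among the 5 with the most CPM per kilobase, Rpl4 rose by 0.12 (336 CPM per kilobase with forskolin and 309 with vehicle, edgeR adjusted p = 0.0374), with overlapping groups and a negative sign in the fit with library size as a covariate (-0.011). Rpl8 was not called (340 with forskolin and 315 with vehicle, log2 fold change 0.11, edgeR adjusted p = 0.0532). The stalk genes Rplp0 and Rplp1 complete the 5.

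Of the 11 genes named as copies of other ribosomal protein genes, 4 were too low to test, and the others differed among themselves. Rpl22l1 encodes a close paralogue of Rpl22, and the Rpl22 protein represses it in mouse. It had 37.0, 35.2 and 36.7 CPM in forskolin libraries A, B and C and 27.8, 24.1 and 26.0 CPM in vehicle libraries A, B and C. All forskolin libraries lay above all vehicle libraries. The log2 fold change was 0.48 (SE 0.078, edgeR adjusted p = 4.71e-05), the highest of the 85 tested genes. The deposited rows of Rpl22l1 and Rps27, like that of Rps4l, are non-coding RefSeq transcripts of these genes. Rpl22 itself averaged 122 ± 7.25 CPM with forskolin and 107 ± 3.57 CPM with vehicle (SD, n = 3 each) and rose by 0.19 (edgeR adjusted p = 0.00585).

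Rpl7l1, a paralogue of Rpl7, was the 1 gene of the 85 that fell. It had 136, 131 and 137 CPM with forskolin, against 145, 147 and 151 CPM with vehicle. The forskolin libraries all lay below the vehicle libraries, and the log2 fold change was -0.13 (SE 0.044, edgeR adjusted p = 0.0163). This call was lost with scaling by library size alone, with upper-quartile factors, without forskolin B and without vehicle C, with adjusted p of 0.00985 to 0.0902 over the alternatives run. Rpl7 rose by 0.17 (edgeR adjusted p = 0.00739), at 247 ± 11.5 CPM with forskolin and 220.0 ± 11.998 CPM with vehicle (SD, n = 3 each).

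Rps27l, a p53 target gene that makes a near-identical form of Rps27, had 88.2, 80.8 and 81.9 CPM with forskolin and 88.0, 81.6 and 92.0 CPM with vehicle. Its groups overlapped and it was not called (log2 fold change -0.060, edgeR adjusted p = 0.396). Rps27 rose by 0.18 (edgeR adjusted p = 0.0314), at 55.0 ± 3.65 CPM with forskolin and 48.4 ± 3.14 CPM with vehicle (SD, n = 3 each). Rpl36al, an autosomal copy of the X-linked Rpl36a, rose by 0.17 (edgeR adjusted p = 0.0197), while Rpl36a was not called (0.081, 0.369). Rps4x, the gene Rps4l is named for, rose by 0.18 (edgeR adjusted p = 0.00194).

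**Figure D2:**
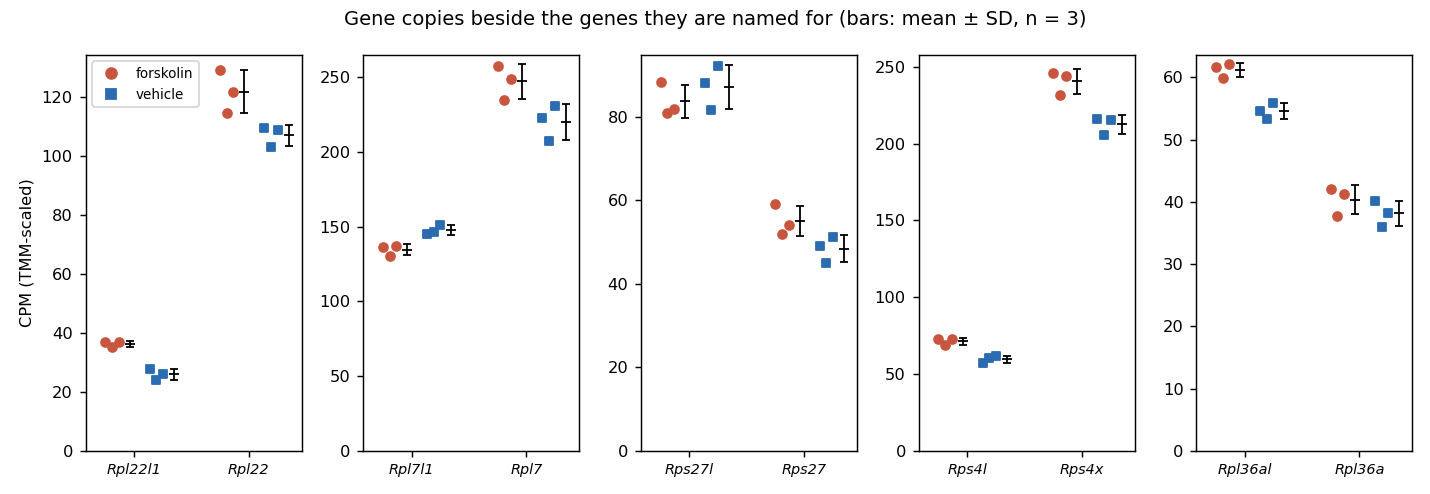
CPM (vertical axes, TMM-scaled, each from 0 and on its own scale) of 5 gene copies, each beside the gene it is named for, in the 3 forskolin libraries (circles) and the 3 vehicle libraries (squares), with mean ± SD at the side. Rpl22l1 is higher with forskolin by more than Rpl22, while Rpl7l1 is lower and Rpl7 higher.

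The ratio of a copy to its namesake within a library does not depend on how libraries are scaled. It can still move with depth where copy and namesake do not shift alike. In vehicle B over vehicle C, Rpl7l1 stood at -0.046 and Rpl7 at -0.16 on the log2 scale. Rpl22l1 stood at -0.11 and Rpl22 at -0.081 there, and Rps27l at -0.17 and Rps27 at -0.19. The ratios below are of counts, not of counts per base, and serve only to compare libraries. Rpl22l1 had 28.7%, 30.7% and 30.2% of the counts of Rpl22 in forskolin libraries A, B and C, against 25.5%, 23.5% and 23.9% in vehicle libraries A, B and C. Rpl7l1 had 52.8%, 55.6% and 55.1% of the counts of Rpl7 with forskolin, against 65.4%, 70.8% and 65.6% with vehicle. Rps27l had 149%, 156% and 151% of the counts of Rps27 with forskolin, against 179%, 181% and 180% with vehicle. None of these 3 ratios overlapped between the groups. Rpl22l1 gained on its namesake by 0.30 on the log2 scale, while Rpl7l1 fell by 0.30 and Rps27l fell by 0.24 relative to theirs. For each of them, and for Rps4l over Rps4x (a difference of 0.081), the exact two-sided permutation test gave p = 0.1, which is the smallest value that 3 against 3 libraries allow. The other 3 of the 7 ratios compared, those of Rpl36al, Rps27rt and Rpl37rt, gave exact p of 0.2, 0.6 and 0.6. A lack of overlap was common for the levels of single genes. Of all 13357 tested genes, 3853 had every forskolin library above every vehicle library, and 3781 had every one below. Such a share was not computed for ratios of other genes. Rpl22l1 and Rpl7l1 also had the highest and the lowest log2 fold change of the tested ribosomal protein genes in these same data.

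The starts of these genes differ in the pyrimidine run that marks a TOP mRNA. The stretches below were read from the RefSeq promoter table of mouse build GRCm38.p6, and show the 15 bases before the annotated start and the 15 from it on, 5′ to 3′ on the gene's strand. Capitals mark the longest run of C and T with a base within 5 bases of the start. The first 5 are copies whose ratio to their namesake did not overlap between the groups, with the namesakes (Rpl7 and Rps4l have no entry in the table); Rpl23 and Rps7 were among the genes with the highest fold changes, and Rps6 and Rplp2 are textbook TOP mRNAs.
Rpl22l1 (chr3:28805493-28805522, plus strand): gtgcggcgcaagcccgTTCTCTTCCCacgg
Rpl22 (chr4:152325711-152325740, plus strand): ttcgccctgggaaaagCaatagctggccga
Rps27l (chr9:66946071-66946100, plus strand): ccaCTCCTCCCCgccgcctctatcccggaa
Rps27 (chr3:90213634-90213663, minus strand): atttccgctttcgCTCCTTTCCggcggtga
Rpl7l1 (chr17:46782642-46782671, minus strand): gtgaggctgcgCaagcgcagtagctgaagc
Rpl23 (chr11:97782425-97782454, minus strand): acgaggtccggTCacgtggctgagtgggcg
Rps7 (chr12:28635939-28635968, minus strand): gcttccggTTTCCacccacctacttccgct
Rps6 (chr4:86857353-86857382, minus strand): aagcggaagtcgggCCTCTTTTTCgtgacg
Rplp2 (chr7:141447636-141447665, plus strand): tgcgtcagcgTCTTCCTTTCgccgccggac

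The marked run was 10 bases long in Rpl22l1, Rps6 and Rplp2, 9 in Rps27 and Rps27l, 5 in Rps7, 2 in Rpl23 and 1 in Rpl22 and Rpl7l1. In Rps27l, Rps7, Rpl23 and Rpl7l1 the run ended before the annotated start. Rpl23, with a run of 2 at this start, had a log2 fold change of 0.27, and Rps6, with a run of 10, had 0.18; a relation of run length to fold change was not tested. The annotated start can lie some bases from the one used in these cells, and no read positions were used here. Only 63 of the 85 tested genes matched an entry of the table, fewer than 80%, so a count of such runs or of promoter motifs over the whole set is void and is not given. Of the 63, 58 had the same start in the deposited table.

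Sequence shared with pseudogenes limits what a count of a ribosomal protein gene measures, since how the deposited counts treat reads that match several places is not stated. Of the 79 tested genes matched to GENCODE transcripts, a median of 43.2% of 50-base stretches occurred in no other annotated gene (range 4.91% to 100%). The 7 genes with at least 90% unique stretches had a median log2 fold change of 0.13, with 4 called higher, and the 72 others had a median of 0.12, with 35 called higher. Of the called genes with the highest or lowest fold changes, Rps20 had 92.4% unique stretches, Rpl7l1 90.8%, Rps4l 85.1%, Rpl23 65.3%, Rpl22l1 48.0%, Rps7 40.1% and Rpl3 14.4%. Exons of 37 of the matched genes overlapped another annotated gene, often a small nucleolar RNA, and in Rpl22l1 the predicted gene Gm33051. The library kit is not stated to keep strand, so reads of overlapping genes cannot be told apart. Rps27rt (chr3:90212667-90213647 on mm10) and Rps27 (chr3:90212667-90213648) are 2 rows over 1 locus, although GENCODE puts Rps27rt on chromosome 9. The Rps27rt row held 96.3%, 94.9% and 97.3% of the counts of Rps27 with forskolin and 95.9%, 95.5% and 95.4% with vehicle, so the 40 genes called higher count this locus 2 times. Rps19bp1 was not called (log2 fold change 0.020, edgeR adjusted p = 0.814).

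Ribosomal protein mRNAs are short and densely covered. Their median exon length was 696 bases, and their median coverage was 1.89 counts per base and library. Also within a group, their median level was lower in the deeper library of each pair. Ribosomal protein genes took 1.12%, 1.06% and 1.11% of all counts in forskolin libraries A, B and C, and 0.989%, 0.932% and 0.994% in vehicle libraries A, B and C. The groups did not overlap, with means of 1.10% ± 0.035 with forskolin and 0.972% ± 0.035 with vehicle (SD, n = 3 each). In each group the deepest library, B, had the lowest share. Library B of the vehicle group had 1.16 times the total count of vehicle C but 1.09 times the ribosomal protein counts, and library B of the forskolin group had 1.19 times the total of forskolin A but 1.12 times the ribosomal protein counts.

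**Figure D3:**
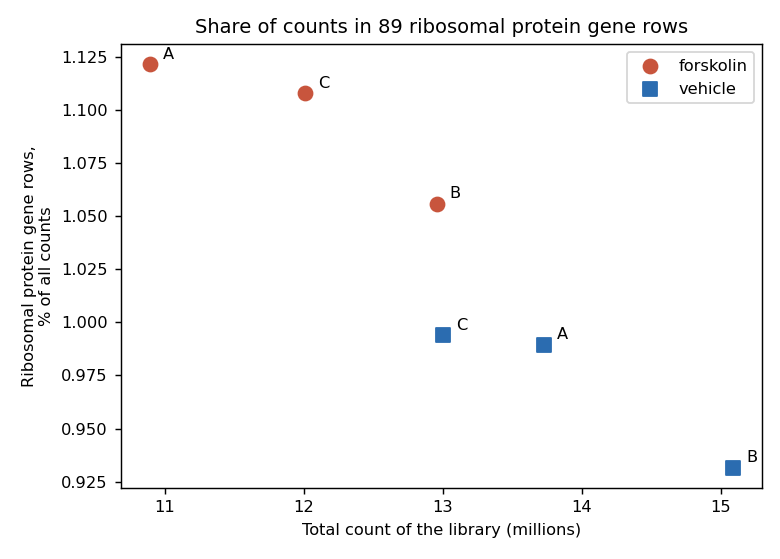
Share of all counts in the 89 ribosomal protein genes (vertical axis, %, not starting at 0) against the total count of the library (horizontal axis) for the 3 forskolin (circles) and 3 vehicle (squares) libraries. The share is 1.06% to 1.12% with forskolin and 0.932% to 0.994% with vehicle, the forskolin libraries are the shallower ones, and B, the deepest of each group, has the lowest share of its group.

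Pairs of libraries were then compared by the median log2 ratio of TMM-scaled CPM over the 85 genes. Within groups, vehicle B stood at -0.11 relative to vehicle C, with 83 of the 85 genes below 0, at a log2 ratio of totals of 0.21. Forskolin B stood at -0.11 relative to forskolin A, with 82 genes below 0, at a log2 ratio of totals of 0.25. In all 6 within-group pairs the deeper library had the lower median, by 0.020 to 0.11. The pairs without a library B stood nearest to 0, at -0.028 (forskolin C over forskolin A) and -0.020 (vehicle A over vehicle C). Library B was the deepest of both groups, so depth and other traits of the B libraries cannot be told apart within groups. Across groups the mean totals differed by -0.22 on the log2 scale, and the medians ran up to 0.25 in forskolin A over vehicle B, where the totals differed most (-0.47). The pair nearest in total count was forskolin B over vehicle C, with a log2 ratio of totals of -0.0052, although these libraries still differed in TMM factor (1.02 and 0.978) and in the share of counts in genes over 1 count per base (34.0% and 35.2%). There the median was 0.019, with 51 genes above 0 and 34 below. These pairs share libraries, and no test was made over them.

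**Figure D4:**
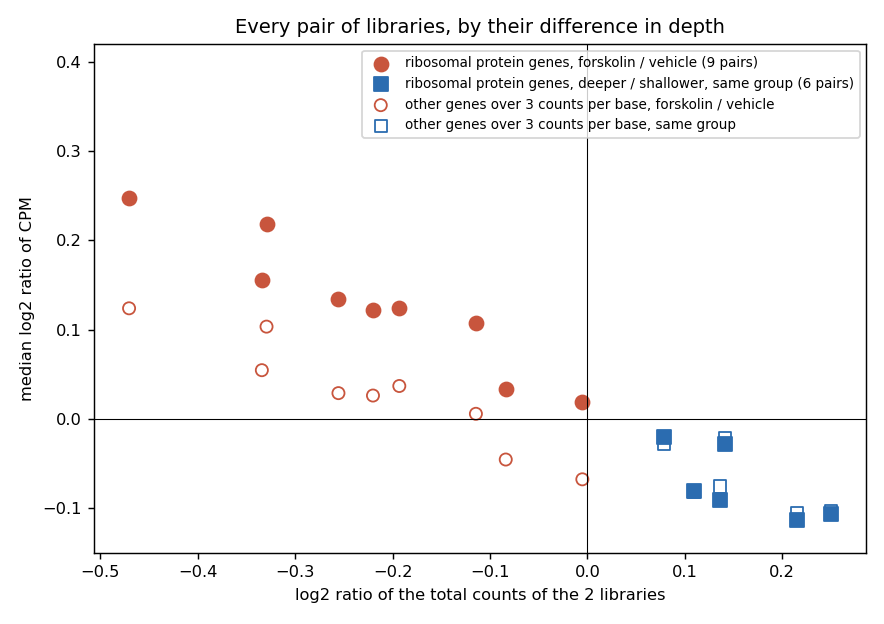
Median log2 ratio of CPM (vertical axis) against the log2 ratio of total counts (horizontal axis) for each of the 15 pairs of libraries, with forskolin over vehicle as circles and deeper over shallower within a group as squares; filled symbols are the 85 ribosomal protein genes and open symbols the other genes over 3 counts per base. Ribosomal protein genes run from 0.25 where the forskolin library is much shallower to 0.019 where the total counts are nearly equal, and to -0.11 within groups, where filled and open squares nearly coincide.

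In within-group pairs with a library B, other genes over 1 count per base also stood lower in the deeper library, most so over 3. The pairs without a library B showed less of this. Forskolin C over forskolin A stood at -0.021, 0.020 and -0.0045 for other genes over 3, 1 to 3 and under 1. Vehicle A over vehicle C stood at -0.028, -0.011 and 0.0029 for these classes. For 81 other genes with over 3 counts per base, the median log2 ratio of vehicle B over vehicle C was -0.11, the same to 2 decimals as for ribosomal protein genes, and it was 0.0091 for the 6991 other genes with 0.1 to 1. In the class of 1 to 3 counts per base, which holds 53 of the 85, the ribosomal protein genes moved further than the 983 other genes: their medians were -0.12 against -0.062 in vehicle B over vehicle C, and -0.12 against -0.035 in forskolin B over forskolin A. Over the 6 within-group pairs, the ribosomal protein median minus that of the 81 dense genes lay between -0.015 and 0.0079. Over the 9 pairs of forskolin over vehicle it lay between 0.079 and 0.12, and in forskolin B over vehicle C, the pair nearest in total count, it was 0.086. Set against other genes under 1000 bases with over 1 count per base, which are nearer in length, the same difference was 0.018 to 0.15 between groups and 0.018 in the pair nearest in total count. Within groups it was -0.085 to -0.0047, so in each of the 6 pairs the ratio of the deeper to the shallower library was lower for ribosomal protein genes than for these genes. Ribosomal protein genes with 0.1 to 1, 1 to 3 and over 3 counts per base had median log2 fold changes of 0.15, 0.12 and 0.14, with 7 of 17, 23 of 53 and 10 of 15 called higher. The median was thus no larger in the most densely covered ribosomal protein genes than in the least covered ones, though a larger part of the densest was called. These classes stood at -0.11, -0.12 and -0.12 in vehicle B over vehicle C, so the least covered class was lower there too. In forskolin B over forskolin A they stood at -0.072, -0.12 and -0.10. The part of depth in their fold changes was not tested.

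A fit on the 4 libraries nearest in total count (forskolin B and C, vehicle A and C) called 11 of the 85 genes higher and 1 lower, with a median log2 fold change of 0.076. The genes higher there included Rpl22l1, Rpl23, Rps4l, Rpl3, Rps20, Rps7, Rps9, Rplp1, Rps4x and Rpl14, and the gene lower was Rpl7l1. A fit of all 6 libraries with library size as a covariate gave a median of 0.020, with 52 of the 85 above 0. In that fit Rpl22l1 was called higher (log2 fold change 0.39, SE 0.12, edgeR adjusted p = 0.0200), and Rpl7l1 (-0.18, 0.0422) and Rps27l (-0.20, 0.0486) were called lower. Rps27l was called in no other alternative, with adjusted p up to 0.848. The covariate also raised the median SE to 0.071 and lowered the calls over all genes to 4297. Since no vehicle library was as shallow as any forskolin library, depth and treatment cannot be told apart fully by it. Rpl22l1 was the 1 gene whose call stood in all 17 alternatives, with adjusted p from 9.67e-08 to 0.0200 and log2 fold changes from 0.39 to 0.54. In the pair nearest in total count it stood at 0.44, and Rpl7l1 stood below 0 in all 9 pairs of forskolin over vehicle, at -0.21 in that pair.

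**Figure D5:**
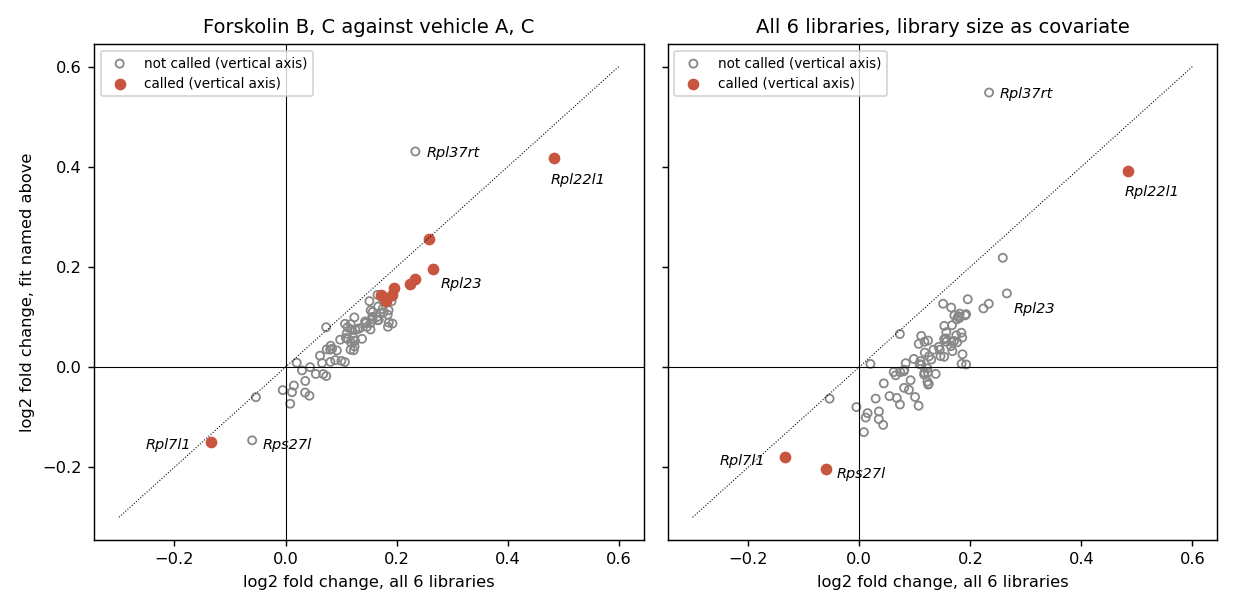
Log2 fold change, forskolin over vehicle, of the 85 genes in the fit on 4 libraries of near depth (left, vertical axis) and in the fit with library size as a covariate (right, vertical axis), against that in all 6 libraries without a covariate (horizontal axes); the dotted line marks equal values and filled points were called on the vertical axis. Most points lie below the line, with medians of 0.076 on the left and 0.020 on the right, and Rpl22l1 stays at 0.42 and 0.39.

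Other genes of translation, in lists taken by function, gave mixed counts. They are set here beside the 24.8% called higher and 25.1% called lower of all tested genes. Of 20 other TOP mRNAs, 9 rose (45%) and 0 fell, with a median log2 fold change of 0.10. They include Eef1a1, the elongation factor that brings tRNAs (885 ± 32.2 CPM with forskolin and 766 ± 33.2 CPM with vehicle, 0.21), Pabpc1, the cytoplasmic poly(A)-binding protein (863 ± 22.0 CPM with forskolin and 752 ± 33.5 CPM with vehicle, 0.20), and Nap1l1, a histone chaperone (366 ± 14.6 CPM with forskolin and 301 ± 3.53 CPM with vehicle, 0.28). All 3 rose (edgeR adjusted p = 0.000826, 0.000969 and 1.69e-05). Eef1a1, with 5.96 counts per base, was more densely covered than any ribosomal protein gene (at most 4.21). Pabpc1, with 3.70, lay within their densest class, over 3 counts per base. In the fit with library size as a covariate Eef1a1 stood at 0.10 (edgeR adjusted p = 0.0805) and Pabpc1 at 0.11 (0.0724), so neither was called, and on the 4 libraries nearest in total count both were called, at 0.15 (0.0150 each). Nap1l1 was called in both fits, at 0.23 and 0.26.

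Of 32 initiation factor genes, 12 rose (37.5%) and 4 fell (12.5%). Eif4g3, a scaffold of the cap-binding complex, rose by 0.70 (263 ± 9.59 CPM with forskolin and 162 ± 7.52 CPM with vehicle, edgeR adjusted p = 4.88e-10), Eif2s2, a subunit of eIF2, rose by 0.39 (1.15e-06), and Eif2b2, a subunit of its exchange factor, fell by 0.52 (5.37e-08). Of 10 elongation and release factor genes, 3 rose (30%) and 1 fell (10%). Of 43 ribosome biogenesis genes, 9 rose (20.9%) and 10 fell (23.3%), with a median of -0.0095. These last shares are near the 24.8% and 25.1% of all tested genes. Rrs1, an assembly factor of the large subunit, rose by 0.45 (edgeR adjusted p = 1.50e-07), Ubtf, a factor of ribosomal RNA transcription, rose by 0.31 (2.20e-05), and Polr1a, the largest subunit of RNA polymerase I, fell by 0.32 (1.62e-05).

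Of 23 tested genes that control ribosome production, 8 rose (34.8%) and 11 fell (47.8%). Mycn, a transcription factor of the Myc family that drives ribosome genes, fell by 2.40 (4.40 ± 1.27 CPM with forskolin and 23.5 ± 0.460 CPM with vehicle, edgeR adjusted p = 1.78e-10). Mdm2, the ligase bound by Rpl5 and Rpl11, fell by 0.72 (248 ± 9.34 CPM with forskolin and 407 ± 16.2 CPM with vehicle, 2.03e-10). Deptor, an inhibitor of mTOR, rose by 0.83 (36.0 ± 1.96 CPM with forskolin and 20.2 ± 0.951 CPM with vehicle, 1.10e-07). Each of these 3 differences was larger in size than the 0.48 of Rpl22l1, the largest of the ribosomal protein genes. Of 78 mitochondrial ribosomal protein genes, 20 rose and 5 fell, with a median of 0.086. Mrpl24 rose by 0.95 (52.4 ± 4.72 CPM with forskolin and 27.1 ± 1.71 CPM with vehicle, edgeR adjusted p = 1.20e-08) and Mrpl38 by 0.57 (6.75e-07), so single genes of that family moved further than any cytosolic one. Of that family 25.6% was called higher and 6.41% lower, against 24.8% and 25.1% of all tested genes.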

How the data were processed

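The authors deposited 1 table of estimated counts (expected counts) per gene for the 6 libraries, with 1 RefSeq transcript and its exon length (a length in bases, of no single sample) for each of 24940 symbols. STAR, HOMER and build mm10 are named by the submitters' processing notes; for versions, strand setting and multi-mapping reads nothing is stated in the labels. The deposited values come in steps of 0.5, and 31.8% are not whole, so they were rounded before tests.

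Genes that passed filterByExpr of edgeR 4.0.16 (R 4.3.3; counts of at least 10, totals of at least 15) were scaled with TMM factors and compared, forskolin over vehicle, by the two-sided quasi-likelihood test with no other term than group. Adjustment was by the Benjamini-Hochberg method over all 13357 tested genes, with a threshold of 0.05. CPM are on TMM-scaled library sizes, and SEs come from the F statistic. Counts per base are the mean deposited count over 6 libraries divided by exon length. The precision at these depths is given by the SE where one is printed, and the biological coefficient of variation was 4.44%.

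Genes were named by a rule. It takes up to 6 called genes with the highest and the lowest log2 fold change, the 5 with the most CPM per kilobase, the copies with their namesakes, 13 genes of known role, and up to 3 called genes of each other list with the smallest adjusted p. Of those the rule takes, Rpl10, Rpl32 and Rpl39 were not called, at log2 fold changes of 0.12, 0.11 and 0.054, and Eef1a2, Eef2k, Eif5a2 and Mrpl57 were called at 1.52, 0.52, -0.43 and 0.43. Rps27rt, Rpl37rt, Rps19bp1, Rps9 and Rpl14 are named outside the rule, with their values already seen. Counts include 1 gene that is not reported here by name. Genes of the rule and of all lists were chosen with earlier results of these data known. Unique stretches were counted in GENCODE M21 transcripts, and start sequences are from RefSeq. Alternatives were other scalings, DESeq2 1.42.0, no filter, a replicate block, library size as a covariate, 4 libraries of near depth, each library left out, and, added after seeing the data, a trend over counts per base and 1 library pair.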

Additional observations from a re-analysis of the deposited data

How the results depend on the processing

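The count of ribosomal protein genes called higher was 40. It was 61 with library size alone, 11 on the 4 libraries nearest in total count and 1 with library size as a covariate, and it ran from 16 (without vehicle B) to 51 (without forskolin B) when each library was left out. The count called lower was 1. It was 0 with library size alone and with upper-quartile factors, 2 with the covariate, and 0 to 1 with a library left out (0 without forskolin B or vehicle C). The median log2 fold change was 0.020 with the covariate and 0.019 in forskolin B over vehicle C. Over all genes the fit with the covariate called 4297 genes, against 6668 in the main fit. Of the genes chosen for naming, these turned negative with the covariate: Rpl4 (-0.011), Rpl10 (-0.011), Rpl36a (-0.042), Rpl39 (-0.058), Rpl11 (-0.015), Rpl38 (-0.12), Rpl5 (-0.10), Rps19 (-0.0086) and Rpsa (-0.0054). On the 4 libraries Rpl39 (-0.014), Rpl38 (-0.057) and Rpl5 (-0.050) did. Over all 85 tested ribosomal protein genes, 33 were below 0 with the covariate and 15 on the 4 libraries, against 4. With a library left out Rpl38 ran from -0.0060 to 0.076 and Rpl5 from -0.037 to 0.058. The causes were not tested. RLE factors, TMM without the ribosomal protein genes and no filter called 40, 40 and 41 genes higher, DESeq2 called 32, and 57 were called with a trend over counts per base. With library size alone 58.1% of all called genes were higher, against 49.8%.

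Whether the replicate letters pair the libraries was not settled. Deviations of libraries with the same letter correlated over genes at 0.030 (A), 0.014 (B) and 0.045 (C). Libraries with different letters ran from -0.050 (forskolin C with vehicle A) to 0.020 (forskolin B with vehicle A). The values of A and C lay above that range, while forskolin B correlated more with vehicle A than with vehicle B. With the letters as a replicate block 47 ribosomal protein genes were called higher and 1 lower, and 6675 genes in all.

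Depth limits these results, since every forskolin library was shallower than every vehicle library.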
